A study of Mus musculus with 10 samples.

Results

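Toll-like receptors are the germline-encoded sensors through which innate immune cells recognise microbial products and molecules released from damaged cells. The genes described here are 9 receptors of the family (Tlr1, Tlr2, Tlr3, Tlr4, Tlr6, Tlr7, Tlr8, Tlr9 and Tlr13) and Cd14, which is not a Toll-like receptor but the lipopolysaccharide-binding co-receptor of Tlr4. They were taken by symbol: a transcript cluster (the probes that cover 1 gene locus) or an exon-level probe set (a few probes within 1 exon) counted where the platform annotation gave it 1 of these symbols alone. All 10 genes were found, with 1 cluster each, among 14860 genes with a single-symbol cluster. All 10 were among the 11280 genes whose highest signal reached the filter level, 3.79 on the log2 scale. The sham signals of Tlr4, Tlr6, Tlr8 and Cd14 were under that level, so these genes passed through the injured arrays, and the sizes of their differences from sham are rough. The exon-level table held 74 probe sets of the 10 genes, 60 of which passed its own filter at 4.85.

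The tissue was spinal cord at segment T10 of wild-type ICR mice, an outbred laboratory stock, all labelled as 4 weeks old. The groups had a sham operation or a spinal cord injury, and injured cords were taken after 1 day, 3 days, 1 week or 3 weeks. Neither the time at which sham cords were taken nor the kind of injury is in the labels. Each group was 1 pool of RNA from 3 mice, measured as 1 gene-level and 1 exon-level sample. A value therefore has no replicate, no test could be run, and a gene was called higher or lower at a log2 difference of 1 or more, which is 2-fold. The SD given beside an exon-level median is the spread between the probe sets of a gene on 1 pair of arrays, and not between mice. Array medians of the gene-level table spanned 0.24 on the log2 scale, so a difference of that order in a gene is within the offset between arrays. Tissue identity was checked on markers: 6 of 7 neuron, 6 of 7 oligodendrocyte and 6 of 7 astrocyte genes were measured. None of these was under the filter level on any array. All 5 measured skeletal muscle genes were called higher than sham at 1 day and 3 days (all genes 3.79% and 5.93%). Their median log2 differences were 4.44 and 3.21, and the part of muscle in these samples was not tested.

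The receptors differ in where they act. Tlr1, Tlr2, Tlr4 and Tlr6 sit at the cell surface and bind bacterial lipids and lipoproteins, Tlr2 as a heterodimer with Tlr1 or Tlr6, and Tlr4 together with the small protein Ly96 (MD-2). Tlr3, Tlr7, Tlr8, Tlr9 and Tlr13 reside in endosomes and bind nucleic acids. Ligand binding recruits the adaptor Myd88 (for Tlr3, and in part for Tlr4, the adaptor Ticam1), and the signal ends in nuclear factor kappa B, AP-1 and interferon regulatory factors. In the central nervous system microglia express most of the family, and macrophages that enter after injury express it too.

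Seen over time, the 10 genes did not follow 1 course. Tlr7, Tlr8 and Tlr13, the endosomal sensors of single-stranded or ribosomal RNA, were 34.0- to 43.6-fold higher at 1 week than in sham. The surface receptors Tlr1, Tlr2, Tlr4 and Tlr6 were 3.32- to 9.95-fold higher at that time. Cd14 was already 14.8-fold higher at 1 day. The sham signals of Tlr4, Tlr6, Tlr8 and Cd14 were under the filter level. Those of Tlr1 and Tlr7, at 3.80 and 3.84, were just above it, so the folds of these genes are rough. In the gene-level table Tlr3 and Tlr9 differed from sham by less than 2-fold at every time. At the exon level, without centring of the arrays, Tlr3 was past 2-fold lower at 1 day. Tlr3 and Tlr9 were lowest at 1 day and highest at 3 weeks at the gene level. The other 8 genes were lowest in sham and highest at 1 week there.

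**Figure D1:**
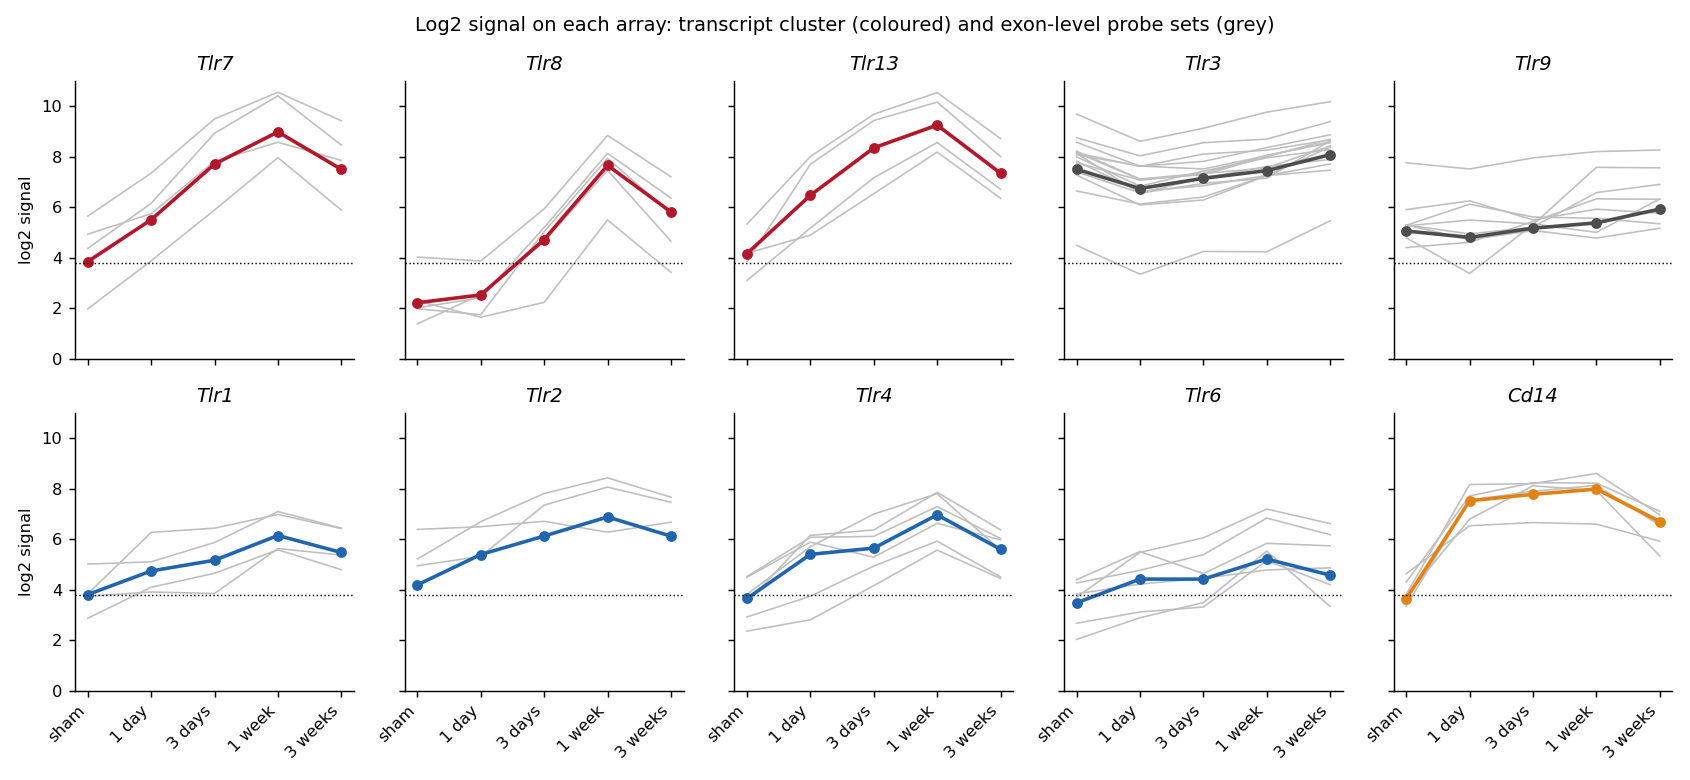
Log2 signal (vertical axis) of each of the 10 genes on the 5 arrays, sham and then the times after injury (horizontal axis), 1 panel per gene, with coloured points for the transcript cluster, grey lines for the exon-level probe sets that passed their filter, and a dotted line at the gene-level filter level. The cluster signal peaks at 1 week in 8 panels and at 3 weeks in those of Tlr3 and Tlr9.

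At 1 day, 5 of the 10 genes were called higher than sham and none lower, against 3.79% of the 11280 genes called higher and 4.09% called lower. The median difference of the 10 was 1.07 on the log2 scale, and that of all genes was -0.15. At 3 days, 7 were higher (all genes 5.93%) and none lower (all genes 9.57%), with medians of 1.97 for the 10 and -0.12 for all genes. At 1 week, 8 were higher (all genes 11.3%) and none lower (all genes 13.9%), with medians of 3.00 and -0.06. At 3 weeks, 8 were higher (all genes 8.5%) and none lower (all genes 3.4%), with medians of 1.94 and 0.00. The split of calls over all genes moved with the scaling: higher calls made up 67.9% at 1 day and 50.6% at 3 days once quantiles were equalised, against 48.1% and 38.3% in the table as it stands. At 3 weeks they made up 54.4% with centred medians, against 71.5%. Among the 10 genes, 7 were called higher at 1 day after centring (Tlr1 and Tlr6 added) and 6 after quantile normalization (Tlr1 added). At 3 weeks 7 were called higher under both, without Tlr6. The 4 comparisons share the 1 sham array, so an unusual sham value of a gene would enter all of them.

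The exon-level table, taken over 14378 genes and without centring of its arrays, gave similar counts for the 10 genes. At 1 day it called 4 higher (all genes 4.69%) and 1 lower, Tlr3 (all genes 5.54%). At 3 days it called 7 higher (all genes 7.75%) and none lower (all genes 11.8%). At 1 week it called 8 higher (all genes 13.1%) and none lower (all genes 15.6%), and at 3 weeks 8 higher (all genes 9.19%) and none lower (all genes 3.65%). The call that it lacked at 1 day was that of Tlr2.

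Tlr7, an endosomal receptor for single-stranded RNA (cluster 7020802), had log2 signals of 3.84 (sham), 5.51 (1 day), 7.71 (3 days), 8.98 (1 week) and 7.50 (3 weeks). Every injured array was above sham, and 3 weeks lay close to 3 days. The log2 differences from sham were 1.66, 3.87, 5.14 and 3.66 at the 4 times. All 4 of its probe sets were at least 2-fold higher than sham from 3 days on, with a median difference of 5.45 ± 1.13 (SD, n = 4 probe sets) at 1 week.

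Tlr8, whose mouse form is a relative of Tlr7 in sequence and position (cluster 7020800), had log2 signals of 2.21 (sham), 2.52 (1 day), 4.72 (3 days), 7.66 (1 week) and 5.81 (3 weeks). The sham and 1 day signals were both under the filter level, so its difference of 0.31 at 1 day is not a measured change, and 2 of 5 probe sets were above sham and 3 below it then. Between 3 days and 1 week it was higher by 2.94 on the log2 scale, the largest step between successive times after injury among the 10 genes. That step was between 2.83 and 3.27 in its 5 probe sets. Its difference from sham at 1 week was 5.45, with an exon-level median of 5.96 ± 1.26 (SD, n = 5 probe sets) and a range of 3.21 to 6.12.

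Tlr13, a receptor for bacterial ribosomal RNA that mice have and humans lack (cluster 7013185), had log2 signals of 4.16 (sham), 6.47 (1 day), 8.35 (3 days), 9.25 (1 week) and 7.35 (3 weeks). Its log2 differences from sham were 2.31, 4.19, 5.09 and 3.18 at the 4 times. Its 1 day signal was already called higher, which that of Tlr8 was not. From 1 week to 3 weeks it dropped by 1.91 on the log2 scale, the largest such drop of the 10 as deposited and after centring. After quantile normalization (-2.02, against -1.97 for Tlr13) and at the exon level (-2.08, against -1.84) that of Tlr8 was larger. At the exon level the median difference at 1 week was 5.34 ± 0.95 (SD, n = 4 probe sets).

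**Figure D2:**
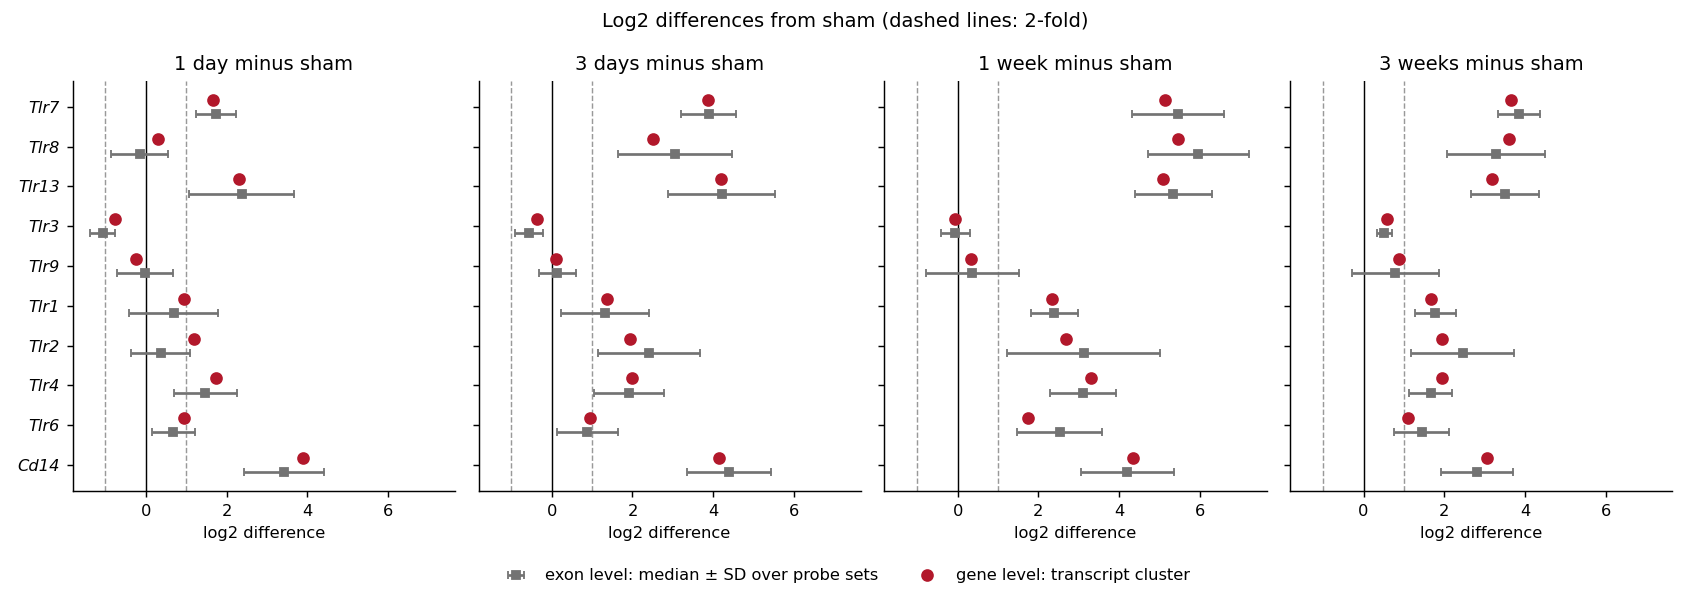
Log2 difference from sham (horizontal axis) of each of the 10 genes (down the page), 1 panel per time after injury, with red circles for the gene level, grey squares with bars for the exon-level median ± SD over probe sets, and dashed lines at 2-fold. The differences of Tlr7, Tlr8 and Tlr13 at 1 week are 5.09 to 5.45 at the gene level, and those of Tlr3 and Tlr9 stay within 1 of 0 there.

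Cd14, the co-receptor that hands lipopolysaccharide to Tlr4 and Ly96 (cluster 6864700), had log2 signals of 3.64 (sham), 7.52 (1 day), 7.77 (3 days), 7.98 (1 week) and 6.70 (3 weeks). The 3 arrays from 1 day to 1 week were close together and far above sham. Its difference from sham was 3.89 at 1 day, the largest of the 10 genes at that time, and 4.35 at 1 week. All 5 probe sets were at least 2-fold higher than sham at all 4 times. Their medians were 3.42 ± 0.99 at 1 day, 4.39 ± 1.05 at 3 days and 4.20 ± 1.16 at 1 week (SD, n = 5 probe sets). In the step from 3 days to 1 week the exon-level median was -0.02, with 2 probe sets higher and 3 lower.

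Tlr4, the lipopolysaccharide receptor (cluster 6914190), had log2 signals of 3.65 (sham), 5.40 (1 day), 5.64 (3 days), 6.96 (1 week) and 5.60 (3 weeks). The arrays of 1 day, 3 days and 3 weeks lay within a narrow band, and 1 week stood above them. Its differences from sham were 1.75, 1.99, 3.31 and 1.95. The exon-level medians followed at 1.47 ± 0.78, 1.91 ± 0.87, 3.11 ± 0.81 and 1.67 ± 0.53 (SD, n = 6 probe sets).

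Tlr2, the shared partner of the lipoprotein receptors (cluster 6906427), had log2 signals of 4.19 (sham), 5.39 (1 day), 6.12 (3 days), 6.88 (1 week) and 6.12 (3 weeks). It was called higher at all 4 times, by 1.20, 1.94, 2.69 and 1.93. Its probe sets did not move together. Probe set 4798823 had 5.21, 6.69, 7.81, 8.43 and 7.66 from sham to 3 weeks, whereas probe set 4406822 had 6.38, 6.49, 6.71, 6.27 and 6.67. At 1 day the exon-level median of 0.37 ± 0.73 (SD, n = 3 probe sets) was under 2-fold, so the call at that time rests on the gene-level table.

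Tlr1, which pairs with Tlr2 for triacylated lipoproteins (cluster 6938678), had log2 signals of 3.80 (sham), 4.74 (1 day), 5.16 (3 days), 6.14 (1 week) and 5.47 (3 weeks). It was called higher from 3 days on, by 1.36, 2.34 and 1.67. Its difference of 0.93 at 1 day was short of 2-fold, and was 1.02 after the arrays were centred on their medians and 1.01 after quantile normalization. The exon-level median at 1 week was 2.40 ± 0.58 (SD, n = 4 probe sets). At 3 days that median was 1.32 ± 1.09. Only 2 of the 4 probe sets were at least 2-fold higher then, and the range was 0.11 to 2.61.

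Tlr6, which pairs with Tlr2 for diacylated lipoproteins (cluster 6938679), had log2 signals of 3.48 (sham), 4.42 (1 day), 4.42 (3 days), 5.21 (1 week) and 4.57 (3 weeks). The 1 day and 3 day values were identical in the deposited table, while the exon-level median of the step between them was 0.40. Tlr6 was called higher at 1 week, by 1.73, and at 3 weeks, by 1.09. Its calls depend on the scaling: at 3 weeks it was under 2-fold, with 0.94 after centring and 0.93 after quantile normalization, and at 1 day its 0.94 as deposited was 1.02 after centring. At the exon level the median at 1 week was 2.53 ± 1.04 (SD, n = 6 probe sets), above the gene-level value.

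Tlr1 and Tlr6 lie next to each other on mouse chromosome 5, and Tlr7 and Tlr8 on chromosome X, with 0 protein-coding genes between the members of each pair in the RefSeq annotation of GRCm38.p6. Tlr1 and Tlr6 are close copies in sequence, and whether probes of 1 also bind transcripts of the other was not tested. The neighbours Tlr7 and Tlr8 differed at 1 day: Tlr7 was called higher at 1 day, and the Tlr8 signal was still under the filter level then.

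Tlr3, the endosomal receptor for double-stranded RNA (cluster 6982102), had log2 signals of 7.50 (sham), 6.74 (1 day), 7.15 (3 days), 7.45 (1 week) and 8.08 (3 weeks). The 1 day array was the lowest and the 3 weeks array the highest, with sham between them. The differences from sham were -0.76, -0.36, -0.05 and 0.58, none of them past 2-fold. The sign at 1 week turned with the scaling, to 0.05 after quantile normalization, and those at the other 3 times did not turn after quantile normalization or median centring. At the exon level all 15 probe sets that passed were below sham at 1 day, between -1.57 and -0.45. Their median of -1.07 ± 0.31 (SD, n = 15 probe sets) is past 2-fold. The median of the whole exon-level array was 5.38 at 1 day and 5.66 in sham. That offset runs the same way and was not removed, so the 2-fold call is not firm. All 15 probe sets were above sham at 3 weeks, between 0.29 and 0.97, with a median of 0.51 ± 0.18.

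Tlr9, the endosomal receptor for unmethylated CpG DNA (cluster 6992159), had log2 signals of 5.06 (sham), 4.80 (1 day), 5.17 (3 days), 5.38 (1 week) and 5.92 (3 weeks). The 3 weeks array was the highest, and the other 4 lay between 4.80 and 5.38. The differences from sham were -0.25, 0.11, 0.32 and 0.87, none past 2-fold. Its probe sets disagreed: at 3 weeks 4 of 8 were at least 2-fold higher, and the range was -0.14 to 2.77. Probe set 5392541 had log2 signals of 4.78, 3.37, 5.31, 7.58 and 7.56 from sham to 3 weeks, and probe set 5481485 had 5.29, 4.72, 5.08, 4.78 and 5.17. The exon-level median at 3 weeks was 0.79 ± 1.07 (SD, n = 8 probe sets), a spread wider than the difference.

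The upstream sequences of Tlr8 and Tlr13, which were among the largest differences, are shown beside that of Tlr9, which was not called at any time. They are the 250 bases before the annotated gene start in the RefSeq GRCm38.p6 promoter table, written 5′ to 3′ on the strand of the gene. The reference is the C57BL/6J genome, not that of ICR mice. Capitals mark the purine box GAGGAA, the core that the myeloid transcription factor Spi1 (PU.1) and its relatives bind, or its reverse complement TTCCTC. Tlr8 lies at chrX:167264330-167264579 on the minus strand, Tlr13 at chrX:106143025-106143274 on the plus strand and Tlr9 at chr9:106222348-106222597 on the plus strand.
Tlr8: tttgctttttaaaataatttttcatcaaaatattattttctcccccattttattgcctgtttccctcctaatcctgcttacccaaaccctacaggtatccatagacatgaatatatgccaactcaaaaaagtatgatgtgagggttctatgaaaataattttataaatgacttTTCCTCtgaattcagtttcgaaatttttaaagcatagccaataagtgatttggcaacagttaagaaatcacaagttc
Tlr13: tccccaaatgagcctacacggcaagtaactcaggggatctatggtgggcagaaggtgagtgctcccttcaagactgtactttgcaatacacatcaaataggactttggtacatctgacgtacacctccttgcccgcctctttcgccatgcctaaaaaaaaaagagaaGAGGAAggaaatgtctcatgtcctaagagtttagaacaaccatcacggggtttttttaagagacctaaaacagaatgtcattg
Tlr9: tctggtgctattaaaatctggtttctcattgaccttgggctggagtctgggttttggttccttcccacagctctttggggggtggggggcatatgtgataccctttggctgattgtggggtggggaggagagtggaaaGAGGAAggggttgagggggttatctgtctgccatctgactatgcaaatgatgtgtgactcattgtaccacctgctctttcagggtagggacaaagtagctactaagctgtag
The box begins 77 bases before the start in Tlr8, 83 in Tlr13 and 112 in Tlr9. It is present on either strand in 23.3% of the 32851 promoter windows of that length, and here it stood before called and uncalled genes alike. The box was also found before 1 of the starts of Tlr1, at 23, and not in the windows of Tlr2, Tlr3 and Tlr6. The kappa B pattern (3 G, any 5 bases and 2 C), which 45.8% of windows hold, was found before Tlr2 as GGGGAATTCC and the overlapping GGGAATTCCC, starting 173 and 172 bases before the start, before Tlr3 as GGGAGTTTCC at 211 and a second match at 23, and before 1 of the starts of Tlr6 as GGGTAATTCC at 99. The interferon response core (GAAA, any 2 bases and GAAA), which 2.98% of windows hold, was found before Tlr6. The windows of Tlr3 and Tlr6 lie wholly within the annotated gene and that of Tlr2 for 216 of 250 bases, whereas those of Tlr8, Tlr13 and Tlr9 lie outside it. Neither pattern was in the windows of Tlr8, Tlr13 and Tlr9. The motifs were searched on both strands and chosen after the values were seen, and a match describes the letters only.

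Between successive times, 3 of the 10 genes were at least 2-fold higher at 3 days than at 1 day (all genes 2.91%): Tlr7 by 2.20, Tlr8 by 2.19 and Tlr13 by 1.88 on the log2 scale. From 3 days to 1 week, 3 were higher (all genes 5.51%): Tlr8 by 2.94, Tlr4 by 1.32 and Tlr7 by 1.28. None of the 10 was called lower in either step, against 0.975% and 3.2% of all genes. The exon level called 4 genes higher in the first of these steps (all genes 3.8%), adding Tlr2 at 1.11, and none lower (all genes 1.98%). In the second it called none lower (all genes 3.72%) and 6 higher (all genes 6.74%). It added Tlr1, Tlr6 and Tlr13 with exon-level medians of 1.08, 1.33 and 1.13. The median of the whole exon-level array was 5.41 at 3 days and 5.56 at 1 week. That offset was not removed, so the added calls of Tlr1 and Tlr13 are not firm.

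From 1 week to 3 weeks, 5 of the 10 were at least 2-fold lower (all genes 3.48%) and none was higher (all genes 7.06%). Tlr13 fell by 1.91, Tlr8 by 1.85, Tlr7 by 1.49, Tlr4 by 1.37 and Cd14 by 1.29 on the log2 scale. All 5 were still called higher at 3 weeks than in sham. Tlr1, Tlr2 and Tlr6 had differences of -0.67, -0.76 and -0.64 in this step. The exon level likewise called 5 lower (all genes 4.47%) and none higher (all genes 9.47%). Tlr3 and Tlr9 had positive gene-level differences in this step, 0.63 and 0.55. All 15 probe sets of Tlr3 were higher at 3 weeks than at 1 week. For Tlr9 the exon-level median of the step was 0.02 ± 0.50 (SD, n = 8 probe sets), with 4 probe sets higher and 4 lower.

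**Figure D3:**
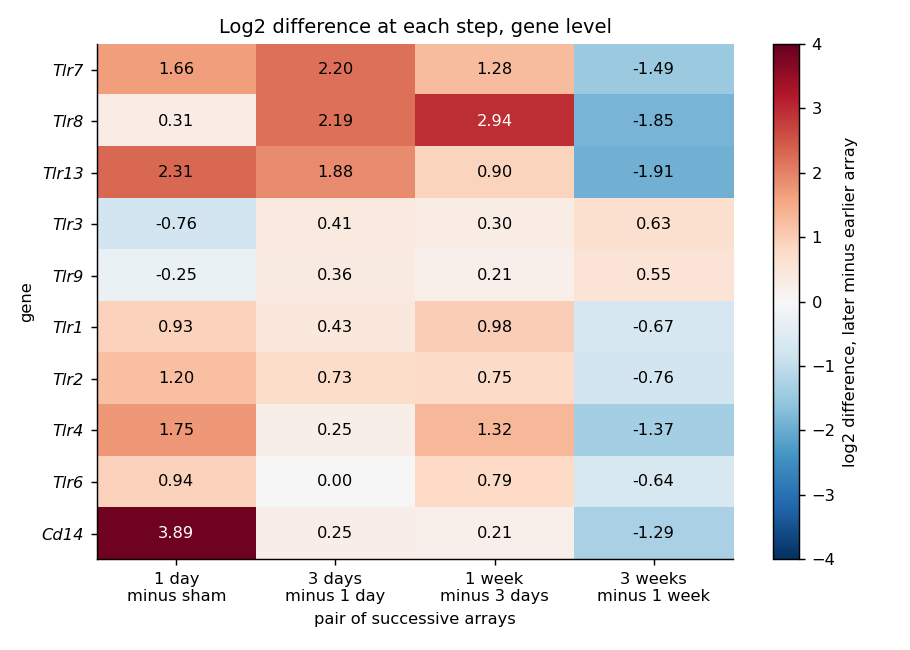
Gene-level log2 difference of each array from the one before it in time (columns, starting with 1 day minus sham) for each of the 10 genes (down the page), as colour and printed value. The step from 1 week to 3 weeks is negative for 8 genes and positive for Tlr3 and Tlr9.

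Genes carried by cells of the myeloid line moved over the same arrays. The 10 general myeloid markers, all measured, were Ptprc, Itgam, Itgb2, Aif1, Tyrobp, Fcer1g, Spi1, Cd68, Csf1r and Laptm5. Of these, 6, 9, 10 and 10 were called higher than sham at the 4 times (all genes 3.79%, 5.93%, 11.3% and 8.5%). At 1 day 1 of the markers was lower (all genes 4.09%). Their summed linear signal was 938 (sham), 1781 (1 day), 5453 (3 days), 11743 (1 week) and 6374 (3 weeks). Their median log2 differences were 1.09, 2.55, 3.77 and 2.77. In RNA of whole tissue, more cells of a type and more RNA of a gene per cell cannot be told apart, and the part of cell numbers in the differences of the 10 genes was not tested.

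Set against that marker median on the same arrays, where a scaling of a whole array cancels, the genes separated. Tlr7 was above the markers by 0.57, 1.32, 1.37 and 0.88 on the log2 scale at the 4 times, and Tlr13 by 1.22, 1.64, 1.32 and 0.41. Cd14 was above them by 2.80 at 1 day and by 0.29 at 3 weeks, but stood at -0.06 at 3 weeks at the exon level. Tlr8 stood at -0.78 at 1 day, where its signals were under the filter level, and at 1.68 at 1 week. The surface receptors had smaller differences than the markers from 3 days on: at 1 week Tlr4 stood at -0.46, Tlr2 at -1.08, Tlr1 at -1.43 and Tlr6 at -2.04. Tlr3 and Tlr9 stood at -3.82 and -3.45 at 1 week. The sign also depends on the marker list. Against the microglia median at 1 week the surface receptors were above, Tlr4 by 2.24, Tlr2 by 1.62, Tlr1 by 1.27 and Tlr6 by 0.66. Against the macrophage median Cd14 stood at -0.13 at 1 week and -0.05 at 3 weeks, and Tlr7 at -0.05 at 1 day. At the exon level Cd14 stood at -0.20 and -0.44 against that list, but Tlr7 at 0.96, so its sign at 1 day is not firm. In sham 5 of the 9 measured macrophage markers were under the filter level.

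**Figure D4:**
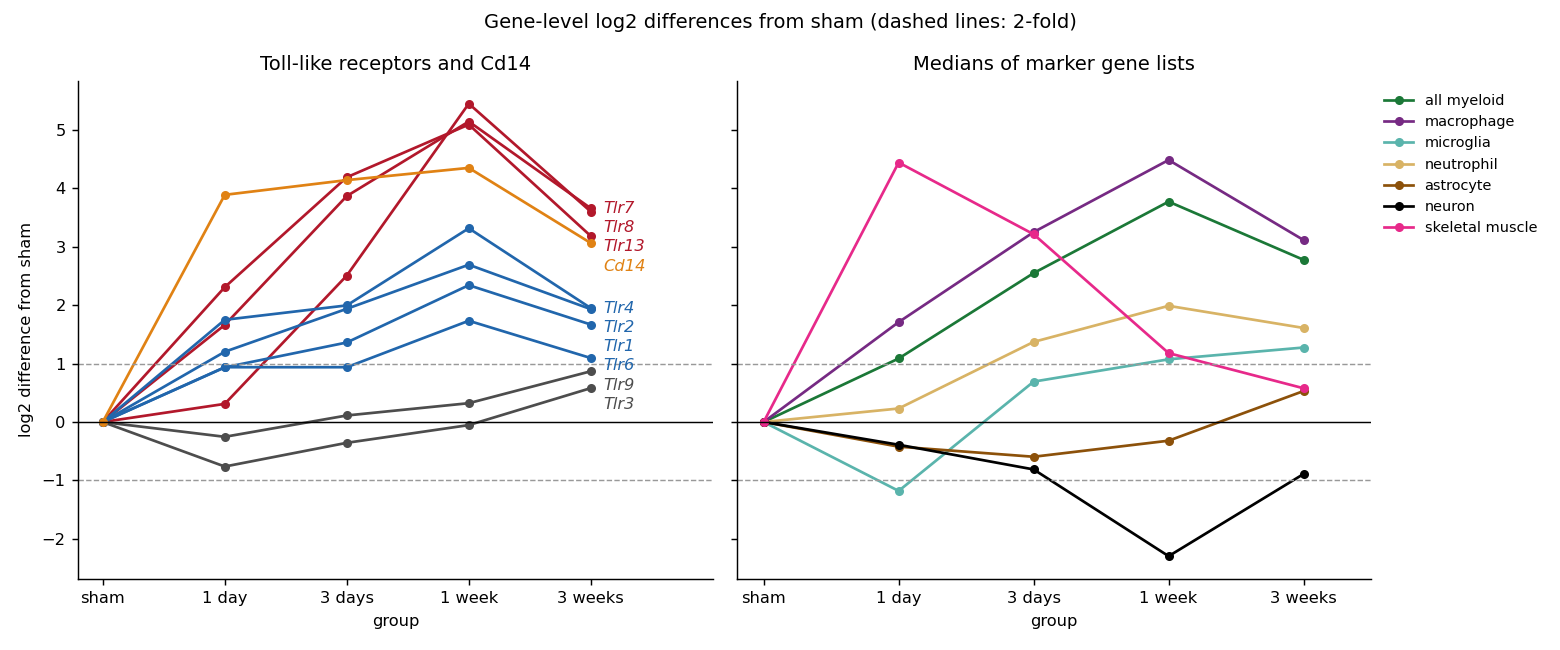
Gene-level log2 difference from sham (vertical axis) by group (horizontal axis, sham at 0 by definition) of the 10 genes in the left panel and of the medians of 7 cell type marker lists in the right panel, with dashed lines at 2-fold. Tlr7 and Tlr13 lie above the general myeloid median at all 4 times, and Tlr3 and Tlr9 lie below it at all 4.

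Markers of narrower cell types ran on different courses. Of 10 microglia markers, 9 were measured, and their summed signal was 724 (sham), 512 (1 day), 1249 (3 days), 2323 (1 week) and 1976 (3 weeks). The 1 day array was the lowest in that sum. Of the 9, 1, 2, 5 and 5 were called higher at the 4 times (all genes 3.79%, 5.93%, 11.3% and 8.5%). Of the same markers, 6, 0, 1 and 0 were called lower (all genes 4.09%, 9.57%, 13.9% and 3.4%). The 9 markers had medians of -1.18, 0.69, 1.07 and 1.27. They moved unevenly: at 1 week Olfml3, with log2 signals of 10.26 at 1 week and 7.16 in sham, differed by 3.10, whereas P2ry12 stood at 0.05, Siglech at -0.55 and Sall1 at -1.07. Of 11 macrophage markers, 9 were measured, with a sum of 116 in sham, 1122, 3835 and 7891 up to 1 week and 2847 at 3 weeks. The signals of 5 of these 9 were under the filter level in sham, and those of 2 at 1 day and at 3 weeks. All 12 neutrophil markers were measured, with sums of 244, 658, 927, 783 and 1206 from sham to 3 weeks. Under the filter level were 4 of them in sham and 1 at 1 day. Astrocyte markers, 6 of 7 measured, had sums of 7189, 6111, 5846, 6508 and 9555, lowest at 3 days and highest at 3 weeks. The sums of neutrophil, endothelial, dendritic cell and T and NK cell markers were highest at 3 weeks too. For dendritic cell markers the sums were 494 at 1 week and 523 at 3 weeks. The median of the whole gene-level array was 4.59 at 1 week and 4.76 at 3 weeks. That offset runs the same way and was not removed, so the order of these 2 dendritic cell sums is not firm. Markers of B cells were measured for 3 of 7 genes only, with sums of 47.9, 54.7, 55.6, 106 and 93.4, and the 5 of 8 measured T and NK cell markers were all under the filter level in sham, at 1 day and at 3 days. Skeletal muscle markers, 5 of 6 measured, had sums of 120, 2284, 1393, 289 and 195, highest at 1 day. All 6 fibroblast markers were measured and called higher at 1 week and 3 weeks (all genes 11.3% and 8.5%), with medians of 3.90 and 3.86. Their sums were 577, 684, 1638, 8658 and 7506. Neuron markers, 6 of 7 measured, were all called lower at 1 week (median -2.30), and 5 of the 6 measured oligodendrocyte markers were (median -1.34). Of all genes, 13.9% were called lower at that time. The part of any of these cell types in the values of the 10 genes was not tested.

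The other genes of the pathway were taken from 7 lists written with earlier results of these data known. Of 112 genes listed, 89 were measured. At 1 day, 3 days, 1 week and 3 weeks, 30, 37, 48 and 41 of them were called higher than sham. Of all genes, 3.79%, 5.93%, 11.3% and 8.5% were. Of the 89 genes, 0, 0, 1 and 0 were called lower (all genes 4.09%, 9.57%, 13.9% and 3.4%). Their median log2 differences were 0.47, 0.70, 1.07 and 0.86. The lists were uneven in their counts. The shares over all genes given above also stand beside the gene-level counts of each list below. The counts of the adaptors and the negative regulators rest on at most 4 of 15 genes at any time at the gene level. They are not read as a result about these lists. Some listed genes also served as cell markers above (Spi1, S100a8, S100a9, Camp and Dcn).

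Of the 12 co-receptors, ligand carriers, chaperones and processing enzymes, all measured, 4, 7, 10 and 9 were called higher at the 4 times and none lower, with medians of 0.29, 1.41, 3.03 and 1.86. Ly96, which holds the lipid A of lipopolysaccharide within Tlr4, had log2 differences of 1.77, 3.06, 4.04 and 2.45. Cd36, a scavenger receptor that works with Tlr2 and Tlr6, had 3.87, 4.74, 7.36 and 3.05, against a sham signal under the filter level. Lbp, the carrier that brings lipopolysaccharide to Cd14, was late, with -0.10, 1.31, 4.95 and 5.50, and did not fall back at 3 weeks. Unc93b1, the chaperone that delivers the nucleic acid receptors to endosomes, had -0.35, 1.51, 3.15 and 2.41, and is named here after its values were seen.

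Of 21 adaptors, kinases and ubiquitin ligases, 15 were measured, and 1, 2, 3 and 2 were called higher at the 4 times. Their medians were 0.01, 0.01, 0.40 and 0.24, beside -0.15, -0.12, -0.06 and 0.00 for all genes. At the exon level 6 of 19 were called higher at 1 week (all genes 13.1%) and 1 lower (all genes 15.6%). Myd88, the adaptor of all the receptors here but Tlr3, was called at every time, with 2.00, 2.21, 2.73 and 2.27. Btk, a kinase of B cells and myeloid cells, had 0.20, 1.60, 2.93 and 1.48, and its sham and 1 day signals were under the filter level. Of the remaining adaptors, Tirap (0.47, 0.46, 0.50 and 0.43), which bridges Tlr2 and Tlr4 to Myd88, and Ticam1 (-0.24, 0.23, 0.50 and 0.32), the adaptor of Tlr3, stayed under 2-fold. They are named after their values were seen.

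Of 18 negative regulators, 15 were measured, with 2, 2, 4 and 3 called higher and 1 called lower, at 1 week. Socs3, an inhibitor of cytokine signalling, had 2.05, 1.71, 1.45 and 1.02, and Nfkbia, which holds nuclear factor kappa B in the cytoplasm, had 1.09, 1.15, 1.08 and 1.05. Irak3, an inactive kinase that blocks the Myd88 complex, was called at 1 week (1.56) and 3 weeks (1.36). Sarm1, an adaptor that inhibits Ticam1 and is best known as an axon degeneration enzyme, was the 1 called lower, at -1.33.

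Of 17 transcription factors, 15 were measured, and 5, 7, 9 and 8 were called higher and none lower. Atf3, a stress-induced factor that restrains inflammatory genes, had 5.05, 4.92, 4.96 and 3.82, against a sham signal under the filter level, and Fos, a subunit of AP-1, had 2.17, 1.79, 1.69 and 1.11. Spi1, the myeloid factor that binds the purine box, had 1.27, 2.66, 3.79 and 2.62, and is also 1 of the general myeloid markers.

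Of 25 inducible target genes, 19 were measured, and 11, 11, 13 and 10 were called higher and none lower. Most of the calls of this list were thus present at 1 day. The chemokine genes Ccl3 (5.18, 4.49, 4.62 and 3.86), Cxcl10 (3.79, 3.55, 1.44 and 2.47) and Ccl2 (3.62, 4.13, 2.54 and 0.86) had larger differences at 1 day than at 3 weeks. Ptgs2, the inducible cyclooxygenase, had 2.77, 2.22, 3.51 and 3.67. The sham signals of Cxcl10 and Ptgs2 were under the filter level. Clec4e, a lectin receptor of macrophages, had 1.41, 2.24, 3.55 and 0.28, and its sham and 3 weeks signals were both under the filter level.

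Of 15 genes for proteins reported as endogenous ligands of these receptors, 11 were measured, and 6, 7, 8 and 8 were called higher and none lower. S100a9, a neutrophil protein that binds Tlr4, had 2.93, 3.79, 2.93 and 4.09, against a sham signal under the filter level, and Saa3, an acute-phase protein, had 2.56, 3.75, 1.53 and 3.82. The matrix genes Tnc (2.95, 3.18, 3.40 and 1.92), Fn1 (1.99, 3.12, 4.05 and 3.74) and Dcn (0.93, 1.59, 3.60 and 3.94) were also called, Dcn from 3 days on. Of the receptors outside the 10 genes, Cd180, a Toll-like receptor relative of B cells and macrophages, had 2.14, 3.83, 4.32 and 2.77. Tlr5 and Tlr11 were not measured above the filter level, and Tlr12 had the same log2 signal, 3.85, on all 5 arrays.

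**Figure D5:**
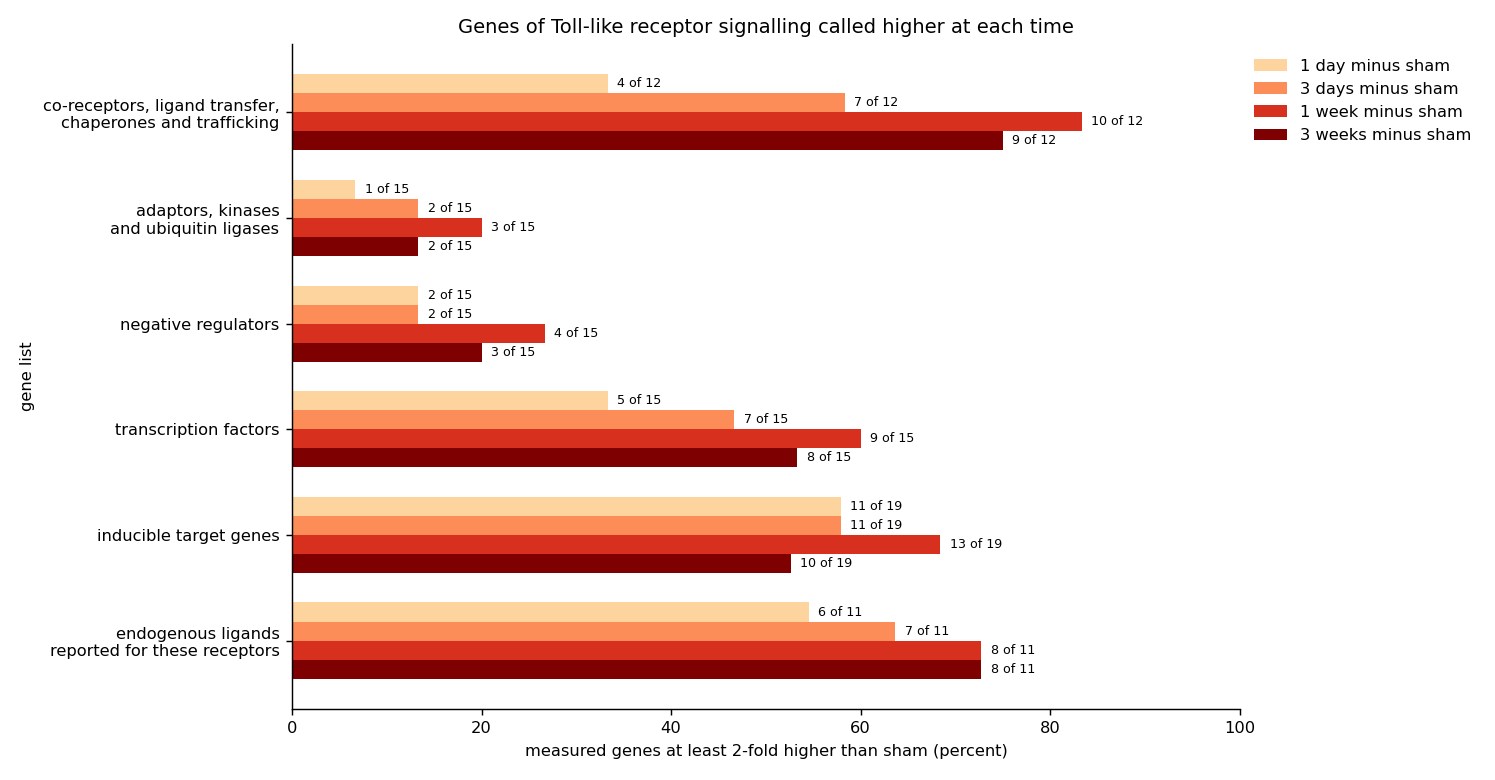
Percentage of the measured genes of 6 pathway lists that were at least 2-fold higher than sham (horizontal axis) at 1 day, 3 days, 1 week and 3 weeks, with the counts at the bar ends. The list of adaptors, kinases and ubiquitin ligases reaches 3 of 15 at 1 week, and that of co-receptors, carriers and processing genes 10 of 12. Of all genes, 11.3% were called higher at that time, and the adaptor counts are not read as a result.

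The genes whose time course came nearest to each of the 10 were ranked among the 11280 by Euclidean distance over the 4 log2 differences from sham, which all share the sham array. The nearest of Tlr7 were Cd84, a receptor of leukocytes (distance 0.81), and Clec5a, a lectin receptor of myeloid cells (0.85). Those of Tlr8 were Hpse, the heparan sulphate-cleaving heparanase (0.62), and Acp5, the tartrate-resistant acid phosphatase (0.91). Those of Tlr13 were the leukocyte tetraspanin Cd53 (0.61) and Igsf6 (0.64). Cd14 was nearest to the membrane protein gene Emp1 (0.41) and the chemokine gene Ccl9 (0.81).

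Among the surface receptors, Tlr4 was nearest to Casp1, the inflammasome protease (0.45), and the interferon-induced Ifi27l2a (0.54), and Tlr2 to Sgpl1, the sphingosine phosphate lyase (0.33), and Ly86, the partner of Cd180 (0.40). Tlr1 was nearest to Fndc3b (0.20) and the antiviral Zc3hav1 (0.21), and Tlr6 to the tetraspanin Cd9 (0.25) and the calcium-binding Calu (0.25). The nearest of Tlr3 were the ciliary gene Ttc30b (0.13) and Npr2, a natriuretic peptide receptor (0.17), and those of Tlr9 were Coch (0.16) and Nxn (0.17). The signals of Coch were under the filter level in sham, at 1 day and at 3 days, and those of Casp1, Ifi27l2a and Clec5a in sham. Distances are smaller for genes with small differences, since many genes lie near 0. Among the 10 genes themselves, the closest pairs were Tlr1 and Tlr2 (0.77), Tlr2 and Tlr4 (0.83), Tlr3 and Tlr9 (0.84), and Tlr7 and Tlr13 (0.86).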

How the data were processed

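The members and gene lists were chosen with earlier results of these data known. Per the labels' protocols, RNA was extracted with Trizol, column-purified with DNase, and labelled with Affymetrix whole-transcript kits. The authors deposited log2 signals, 1 per transcript cluster (23332) and 1 per probe set (229581). Per the submitters' processing notes, GCOS and the mm8 build were used. Background correction, normalization and summarisation remain not given in the sources used here. Neither table names the logarithm's base. The highest gene-level value would be an intensity of 7752 in base 2 and 408575 in natural logarithms, above the 65535 of a 16-bit scanner, so base 2 was taken. Nothing read here says whether both levels come from 1 set of hybridisations.

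Gene names came from the platform annotation: 14996 clusters had 1 symbol, 1019 several and 7317 none, and the last 2 kinds were not named. Symbols were updated through RefSeq identifiers of GRCm38.p6, which held 14941. The brightest cluster stood for a gene. Genes were kept where 1 array reached the 40th percentile of its table. No further normalization was applied, and a difference is the log2 signal of the later array minus that of sham or the earlier one. Exon-level values are medians over the passing probe sets of a gene. Number of arrays, 1 per group and level, limits the precision of every value, and no test was run. Promoter windows were found for 7 of the 10 genes, and 3 are printed.

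Named genes are the 10 members, up to 2 largest rises and falls past 2-fold per pathway list and time, and the 2 nearest genes of each member. Alternatives were the exon level, median centring, quantile normalization, a 60th percentile filter or none, the mean of clusters, all probe sets or their mean, 1.5-fold and 3-fold calls, and, chosen after seeing the data, leaving out clusters with identical values. Python 3.11.15, pandas 2.3.3, numpy 2.4.6 and matplotlib 3.10.9 were used.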

Additional observations from a re-analysis of the deposited data

Results flagged for a closer look

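Tlr3, the receptor for double-stranded RNA, was below sham at 1 day, by -0.76 on the log2 scale, and above it at 3 weeks, by 0.58. These opposite signs lie 1.34 apart, which is past 2-fold. Tlr9, the receptor for CpG DNA, likewise had -0.25 at 1 day and 0.87 at 3 weeks, 1.12 apart. For Tlr3 the gap stayed past 2-fold after centring (1.10), after quantile normalization (1.18) and at the exon level (1.58). For Tlr9 it was under 2-fold in all 3, at 0.88, 0.83 and 0.81. With 1 array per group the difference between the times was not tested in either gene. For Tlr3 all 15 probe sets followed the same signs, whereas for Tlr9 4 of 8 were above sham and 4 below it at 1 day, and at 3 weeks they ranged from -0.14 to 2.77.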

How the results depend on the processing

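Of the counts of called genes among the members and the pathway lists, 141 stayed within 1.5 times of the value given and 13 did not. At the exon level the arrays were not centred. There 1 of the 10 genes was lower at 1 day (Tlr3) and 6 were higher at 1 week than at 3 days. Of the pathway genes, 1, 2, 2 and 1 were lower than sham there at the 4 times. With a 1.5-fold call 1 member was lower at 1 day, and 5, 2, 2 and 1 pathway genes were lower. With a 3-fold call 0 pathway genes were lower at 1 week and 27 were higher at 3 weeks. No called difference changed sign. Quantile normalization moved the median of all genes by 0.14 at 1 day, 0.10 at 3 days and -0.11 at 3 weeks, and centring by -0.16 at 3 weeks. In the step from 1 week to 3 weeks the shifts were -0.13 and -0.17. The filter at the 60th percentile left out Tlr6. No paired analysis was possible because each group is 1 array and the labels give no replicate numbers. The tables hold no detection call, so low signals cannot be separated from background.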

Other observations

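Identical values recur in the gene-level table. Of the 23332 clusters, 687 (2.94%) had the same value on all 5 arrays, and so did 154 (1.37%) of the 11280 genes compared, against 1 of the 229581 exon-level probe sets. Differences of exactly 0 from sham were held by 771 (6.84%), 993 (8.80%), 790 (7.0%) and 782 (6.93%) genes at the 4 times after injury. The median of 0.00 over all genes at 3 weeks falls on such values. Tlr12 is 1 of these genes: its gene-level log2 signal was 3.85 on every array, while its exon-level median differences from sham were 0.73, 0.84, 0.81 and 0.62. Of the 152 such genes with passing probe sets, 0, 0, 1 and 0 were past 2-fold at the exon level at the 4 times. The origin of the identical values was not tested.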
